A study of Homo sapiens with 9 samples.

Results

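The BCL2 family of cell death regulators was described through 10 genes chosen by symbol: the survival proteins BCL2, BCL2L1 and MCL1, the effectors BAX, BAK1 and BOK, and the BH3-only proteins BCL2L11, BID, BBC3 and PMAIP1. A single-symbol probe set, one that the platform annotation assigns to 1 gene, was found for 9 of the 10, and all 9 passed the filter on low values, among 14172 genes that did so. BBC3 was matched only by a probe set that carries several symbols, so no value is given for it. The 9 genes were read by 31 probe sets, of which 27 passed the filter, and each gene's main value comes from whichever of its probe sets was brightest on average across the 9 arrays.

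The samples were TC-71, an established Ewing sarcoma cell line with no selected resistance, and 3 lines derived from it by growth in rising amounts of an agent against the IGF-1 receptor over 6 months. TC/AEW was selected with the receptor kinase inhibitor NVP-AEW541 at up to 5 µM, TC/AVE with AVE1642, an antibody, reaching 10 µg/ml. TC/CP was selected with another antibody, CP-751,871 or figitumumab, whose highest amount is not given in the sources used here. Affymetrix arrays gave log2 RNA levels for 3 TC-71 samples, 1 array each, and for 2 technical replicate arrays of each line. Where the 3 lines are given as 3 values in a row, they stand in the order TC/AEW, TC/AVE, TC/CP. The arrays of a line were averaged, so every line is 1 sample, a fit to a line alone borrows the spread of TC-71, and resistance and time in culture cannot be told apart.

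Proteins of this family decide at the outer mitochondrial membrane whether a stressed cell dies. BCL2, BCL2L1 (BCL-XL) and MCL1 hold the effectors in check. BAX and BAK1 form pores that release cytochrome c when freed, and BH3-only proteins either block the survival proteins or switch the effectors on. Signals from the IGF-1 receptor through AKT favour survival: AKT keeps FOXO transcription factors, which switch on BCL2L11 (BIM), out of the nucleus. The family acts largely through protein binding and turnover, which RNA levels do not show.

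The sequences around the annotated transcription starts of 3 members are shown because BOK and BCL2 had the widest spread of RNA level over the 6 samples and because BCL2L11 is the textbook FOXO target of the family. Each runs 5′ to 3′ on the gene's strand from 250 bases before the start to 50 bases after it, from RefSeq on GRCh38.p14. BOK lies at chr2:241558495-241558794 on the plus strand, BCL2 at chr18:63319720-63320019 on the minus strand and BCL2L11 at chr2:111120664-111120963 on the plus strand. Capitals mark the GC box (GGGCGG on either strand) in BOK and the FOXO core (TGTTTAC on either strand) in BCL2L11, and the BCL2 window held neither.
BOK: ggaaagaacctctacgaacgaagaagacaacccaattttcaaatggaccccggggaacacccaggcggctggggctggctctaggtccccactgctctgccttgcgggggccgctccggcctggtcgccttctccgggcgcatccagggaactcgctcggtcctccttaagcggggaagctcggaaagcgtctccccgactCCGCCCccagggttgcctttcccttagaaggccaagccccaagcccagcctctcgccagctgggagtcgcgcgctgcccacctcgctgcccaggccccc
BCL2: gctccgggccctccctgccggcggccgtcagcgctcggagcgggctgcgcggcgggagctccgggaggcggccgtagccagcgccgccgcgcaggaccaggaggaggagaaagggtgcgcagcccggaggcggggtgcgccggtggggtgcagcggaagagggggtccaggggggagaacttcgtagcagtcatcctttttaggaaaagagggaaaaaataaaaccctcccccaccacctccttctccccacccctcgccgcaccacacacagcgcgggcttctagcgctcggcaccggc
BCL2L11: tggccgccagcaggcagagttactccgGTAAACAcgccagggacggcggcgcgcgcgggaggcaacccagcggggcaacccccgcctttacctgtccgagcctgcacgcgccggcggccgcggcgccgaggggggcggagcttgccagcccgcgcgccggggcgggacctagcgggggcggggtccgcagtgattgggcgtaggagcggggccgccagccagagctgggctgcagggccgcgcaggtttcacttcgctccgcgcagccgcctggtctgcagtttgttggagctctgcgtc

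Windows of this kind were found for 9 of the 10 members, with 14 windows in all since BID and BCL2L1 have several starts. These 9 are not the 9 measured genes: they include BBC3, which has no RNA value, and lack MCL1. A member is counted below if any of its windows has a match, while the shares are of single windows. The counts of members are therefore raised against the shares. The FOXO core was present in the window of 1 of these 9 members, BCL2L11, and in 3.42% of all 35116 windows. The GC box was present for 7 of the 9 members and in 45% of all windows. The letters CCAAT on either strand were present for 5 of the 9 and in 34.6% of all windows. The E-box CACGTG was present for 3 of the 9, with 4 matches in BAX, and in 7.26% of all windows. BOK and BCL2 windows were 66.7% and 70.7% G and C, against a median of 58.7% over all windows. These matches describe letters and say nothing of binding.

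Of the 9 members, BOK was the one whose RNA was lower on all 6 arrays of the resistant lines than in any TC-71 sample. The same held for 4.33% of all genes, and 9.53% did not overlap in either direction. BCL2 was highest in TC/AVE, MCL1 was highest in TC/CP, and BID was lowest in TC/AEW. No member passed an adjusted p of 0.05 by limma in any of 6 comparisons. Over all genes tested, the share called was 0% for each single line, 0% for both comparisons between lines, and 0.0212% in the lines in common. At an unadjusted p under 0.05, 1 of the 9 members was found in each single line and in the lines in common, where 3.52%, 7.23%, 4.93% and 8.39% of all genes were. In the comparisons between lines 0 of the 9 members reached that p, where 1.81% of all genes did for the inhibitor line against both antibody lines and 5.78% for TC/AVE against TC/CP.

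**Figure D1:**
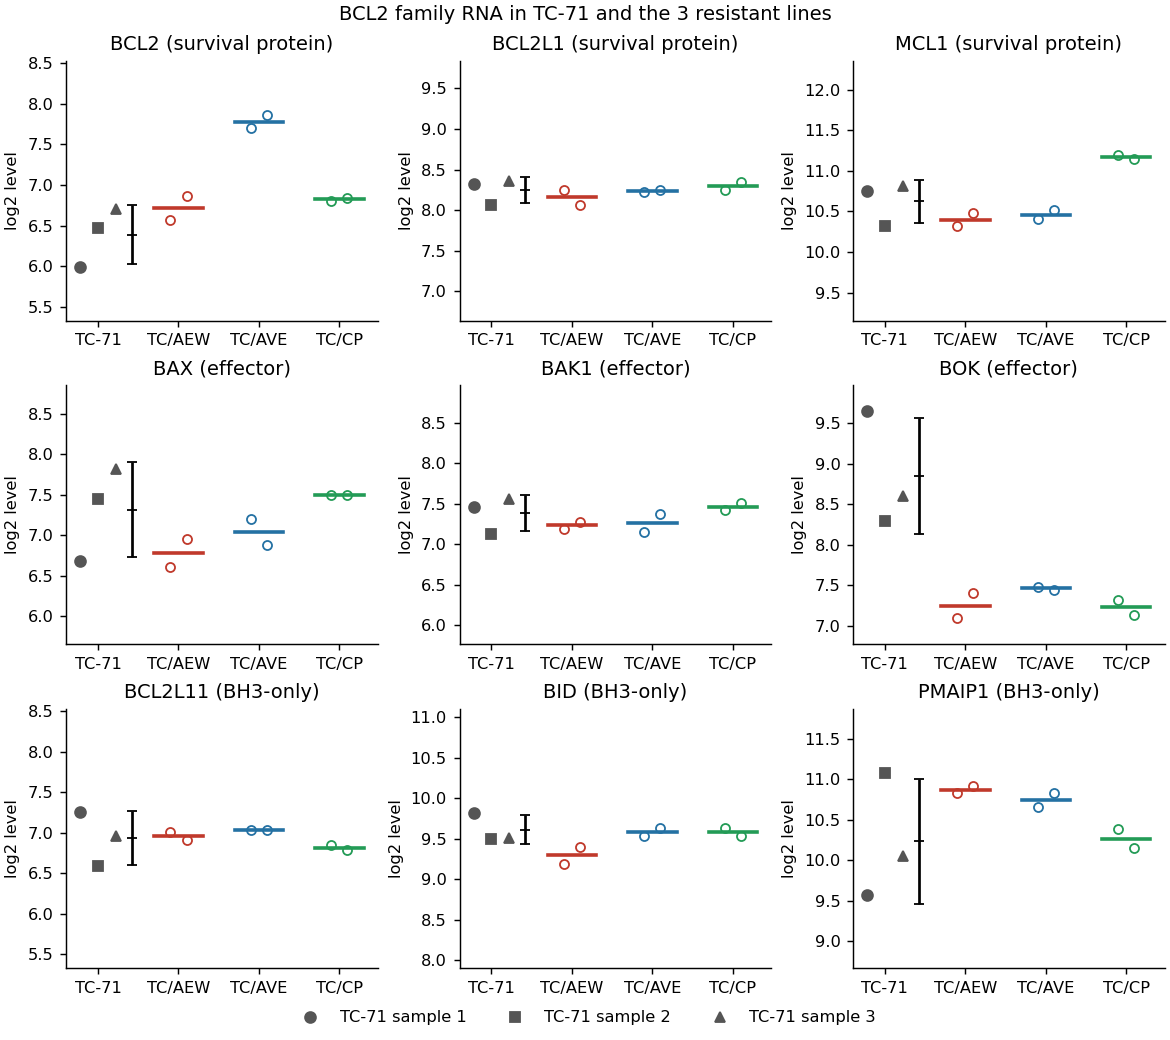
Log2 RNA level (y axis) of the 9 measured BCL2 family genes in TC-71 and each resistant line (x axis); filled symbols are the 3 TC-71 samples with their mean ± SD beside them, open circles the 2 technical arrays of a line and bars their mean. All panels span the same range. BOK is the gene shown whose 6 line arrays all lie under TC-71, as they do for 4.33% of all genes.

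Among the survival genes, BCL2 read 5.99, 6.47 and 6.71 in TC-71 samples 1, 2 and 3. The TC/AEW arrays read 6.56 and 6.87, the TC/AVE arrays 7.70 and 7.86, and the TC/CP arrays 6.80 and 6.84. TC/AVE was thus above every other array, TC/CP lay just above TC-71, and TC/AEW overlapped TC-71. TC/AVE stood 1.39 ± 0.33 higher than TC-71 on the log2 scale (moderated SE, 95% interval 0.54 to 2.25, 2.63-fold, unadjusted p = 0.00856, adjusted p = 0.518 by limma). The ± of every difference below is likewise the moderated SE of the limma fit. Against TC/CP the difference of TC/AVE was 0.96 ± 0.41 (adjusted p = 0.908). In order of level the samples ran TC/AVE, TC/CP, TC/AEW and the TC-71 mean of 6.39 ± 0.36 (SD, n = 3), and TC/CP and TC/AEW, at 6.82 and 6.72, lay within 1 TC-71 SD of each other.

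The BCL2 value rested on 1 of 4 probe sets. In TC/AVE probe set 203685_at gave the 1.39 above, while 203684_s_at gave 0.42, 207005_s_at 0.09 and 207004_at 0.01. In TC/CP 203685_at gave 0.43, while 203684_s_at gave -0.22, 207005_s_at -0.17 and 207004_at -0.09. On 207004_at the 9 arrays ran only from 6.14 to 6.40, with all 3 lines overlapping TC-71. The mean over the 4 probe sets was 0.48 ± 0.20 higher in TC/AVE than in TC-71 (adjusted p = 0.709).

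MCL1, a short-lived survival protein, read 10.75, 10.32 and 10.81 in TC-71, 10.32 and 10.48 on the TC/AEW arrays, 10.41 and 10.52 on the TC/AVE arrays, and 11.19 and 11.14 on the TC/CP arrays. Both TC/CP arrays were above every other array, and TC/AEW and TC/AVE overlapped TC-71. The TC/CP arrays belong to another array set than those of TC/AEW and TC/AVE, as described below. TC/CP was 0.54 ± 0.28 higher than TC-71 (1.46-fold, 95% interval -0.18 to 1.26, adjusted p = 0.998), and TC/AVE was 0.71 ± 0.34 lower than TC/CP, as a difference of -0.71 (adjusted p = 0.950). Of the 6 MCL1 probe sets, 4 had both TC/CP arrays above TC-71, with differences of 0.54, 0.57, 0.65 and 0.93. The 0.57 and 0.93 came from 214057_at and 214056_at, which read low, with TC-71 means of 5.32 and 4.82. The remaining MCL1 probe sets, 200796_s_at with a TC-71 mean of 7.02 and the dim 227175_at, gave -0.14 and -0.03.

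By its main probe set, BCL2L1 was the steadiest member. It read 8.32, 8.07 and 8.36 in TC-71, 8.25 and 8.06 on the TC/AEW arrays, 8.22 and 8.25 on the TC/AVE arrays, and 8.25 and 8.34 on the TC/CP arrays. All 3 lines overlapped TC-71, and their difference in common was -0.02 ± 0.13 (95% interval -0.34 to 0.29, adjusted p = 0.975). Its SD over the 6 samples, 0.11, was at or above that of 11.9% of all genes tested. The dimmer probe sets 206665_s_at and 215037_s_at gave -0.27 ± 0.19 and -0.34 ± 0.18 for the lines in common (adjusted p = 0.816 and 0.761 in a fit over all single-symbol probe sets past the filter). In TC/CP both arrays lay below all TC-71 samples on 215037_s_at (-0.51) and 231228_at (-0.30). There 206665_s_at (-0.30) overlapped TC-71, and the main probe set gave 0.05.

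Among the effectors, BOK is a BAX and BAK1 relative that is held low by protein turnover. It read 9.65, 8.29 and 8.60 in TC-71 samples 1, 2 and 3. The TC/AEW arrays read 7.09 and 7.40, the TC/AVE arrays 7.48 and 7.45, and the TC/CP arrays 7.32 and 7.14. The 3 lines lay within 0.24 of each other, below the lowest TC-71 sample, and TC-71 sample 1 lay well above the other two. In the lines in common BOK was 2.89-fold lower, with a log2 difference of -1.53 ± 0.33 (95% interval -2.32 to -0.75, unadjusted p = 0.00243, adjusted p = 0.297). BOK was the only member whose 6 line arrays did not overlap TC-71, where 9.53% of all genes did not overlap, 4.33% lying lower and 5.2% higher.

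Line by line, BOK differed from TC-71 by -1.60 ± 0.56 in TC/AEW (3.02-fold lower, adjusted p = 1.00), -1.38 ± 0.56 in TC/AVE (2.61-fold, adjusted p = 0.703) and -1.62 ± 0.56 in TC/CP (3.07-fold, adjusted p = 0.920). Between lines the differences were -0.10 ± 0.59 for the inhibitor line against both antibody lines and 0.24 ± 0.68 for TC/AVE against TC/CP (adjusted p = 1.00 for both). The second BOK probe set, 221454_at, was near background at 4.51 to 4.81 on 8 of the arrays, and read 5.83 in TC-71 sample 1. It therefore also set TC-71 sample 1 apart, but gave no measure of the lines.

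BAX read 6.68, 7.45 and 7.82 in TC-71, 6.61 and 6.96 on the TC/AEW arrays, 7.20 and 6.88 on the TC/AVE arrays, and 7.50 and 7.49 on the TC/CP arrays. The TC-71 samples spanned 1.14, so every line overlapped them, and TC/AEW differed by -0.53 ± 0.47 (adjusted p = 1.00). Its second probe set, 208478_s_at, was below all TC-71 samples in TC/AEW and TC/AVE, with differences of -0.71 ± 0.32 and -0.44 ± 0.32 (adjusted p = 1.00 and 0.963), and overlapped TC-71 in TC/CP at -0.27.

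BAK1 had 1 probe set, which read 7.46, 7.13 and 7.55 in TC-71, 7.19 and 7.28 on the TC/AEW arrays, 7.15 and 7.37 on the TC/AVE arrays, and 7.43 and 7.50 on the TC/CP arrays. All lines overlapped TC-71. The difference in common was -0.06 ± 0.16 (95% interval -0.43 to 0.31, adjusted p = 0.930).

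Among the BH3-only genes, BID encodes a protein that caspase-8 cleaves to link death receptors to mitochondria. It read 9.81, 9.50 and 9.51 in TC-71, 9.19 and 9.40 on the TC/AEW arrays, 9.53 and 9.63 on the TC/AVE arrays, and 9.63 and 9.53 on the TC/CP arrays. Only TC/AEW lay below TC-71, by -0.31 ± 0.24 (adjusted p = 1.00). The other 2 BID probe sets gave larger differences in TC/AEW, -0.89 ± 0.28 on 227143_s_at and -0.86 ± 0.28 on 204493_at (unadjusted p = 0.0264 and 0.0279, adjusted p = 1.00 for both). On 227143_s_at the TC/AEW arrays read 7.58 and 7.56 and the TC/AVE arrays 7.89 and 7.84, under the lowest TC-71 sample at 8.17, while TC/CP at 8.39 and 8.45 overlapped TC-71.

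All 3 BID probe sets thus put TC/AEW lowest. In TC/AVE they disagreed, with -0.03, -0.59 and -0.37. In TC/CP they gave -0.03, -0.04 and -0.10.

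PMAIP1 (NOXA), which binds MCL1 and favours its breakdown, read 9.57, 11.07 and 10.05 in TC-71, 10.83 and 10.91 on the TC/AEW arrays, 10.66 and 10.82 on the TC/AVE arrays, and 10.38 and 10.15 on the TC/CP arrays. The TC-71 samples spanned 1.50, more than any other member, and held all 6 line arrays within their range. The difference in common was 0.39 ± 0.38 (95% interval -0.50 to 1.28, adjusted p = 0.827). The second probe set, 204286_s_at, again put TC-71 samples 1 and 2 at the ends, at 8.79 and 10.34, with all line arrays between.

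BCL2L11 read 7.26, 6.59 and 6.96 in TC-71, 7.01 and 6.91 on the TC/AEW arrays, 7.04 and 7.03 on the TC/AVE arrays, and 6.84 and 6.78 on the TC/CP arrays. Every line array lay within the TC-71 range, and the difference in common was 0.00 ± 0.19 (95% interval -0.44 to 0.44). The gene had 7 probe sets, 5 past the filter, and they did not read alike. On 1555372_at all line arrays, from 5.50 to 5.84, were above TC-71 at 5.48, 5.47 and 5.27, with a difference of 0.34 ± 0.13 (unadjusted p = 0.0349, adjusted p = 0.651). The dim 222343_at did the same at a level under 5, from 4.22 to 4.38 in TC-71 and from 4.66 to 4.80 in the lines. On 1558143_a_at TC/AEW (0.34) and TC/CP (0.20) lay above TC-71, and TC/AVE (0.01) overlapped it. On 225606_at TC/CP (0.44) lay above TC-71, while TC/AEW (0.12) and TC/AVE (-0.04) overlapped it. The difference in common on 1553096_s_at was 0.05 ± 0.12, and the dim 208536_s_at was below TC-71 in TC/AEW (-0.24).

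**Figure D2:**
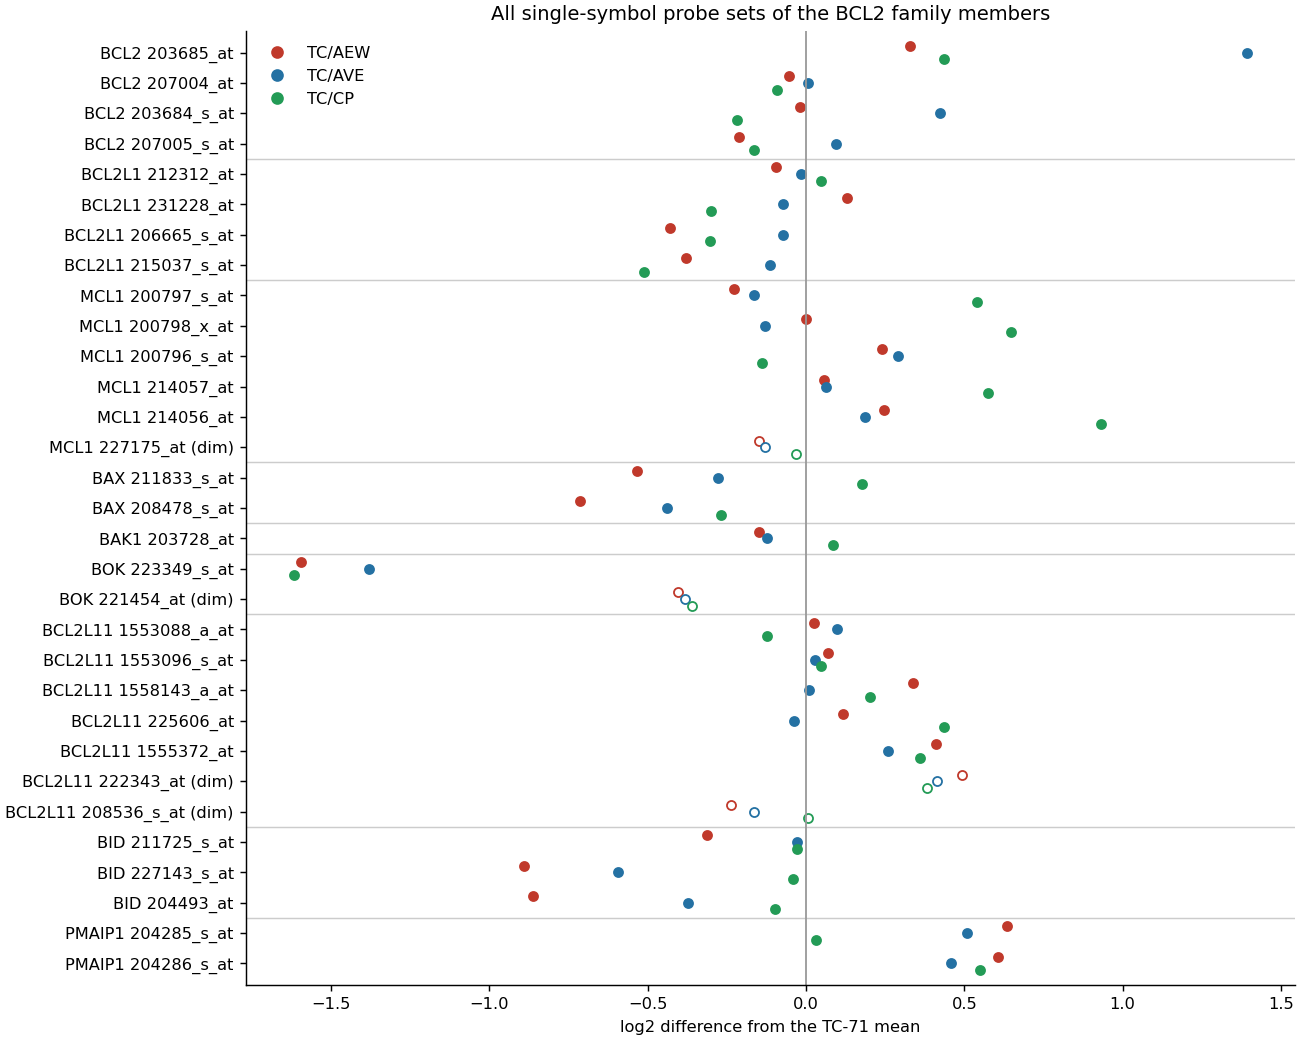
Log2 difference from the mean of the 3 TC-71 samples (x axis) for each of the 31 probe sets of the members (y axis), coloured by line; open circles are the probe sets that did not pass the filter. BOK 223349_s_at lies between -1.62 and -1.38 in the lines, BCL2 203685_at in TC/AVE stands apart from the other BCL2 probe sets, and 4 of 6 MCL1 probe sets lie from 0.54 to 0.93 in TC/CP.

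By line, the members whose arrays lay outside all TC-71 samples were BOK and BID, both lower, in TC/AEW (2 of 9, where 29.8% of all genes did not overlap, 15.4% lying above TC-71 and 14.3% below). In TC/AVE they were BCL2, higher, and BOK, lower (2 of 9, against 39.4%, with 19.6% above and 19.8% below). In TC/CP they were BCL2 and MCL1, higher, and BOK, lower (3 of 9, against 38.2%, with 21.2% above and 17% below). In the lines in common 6 of the 9 members were lower and 3 higher with a median of -0.02, where 51.1% of all genes were lower and the median was -0.01. The members' medians were -0.15 in TC/AEW, -0.03 in TC/AVE and 0.05 in TC/CP.

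As means of each role relative to TC-71, the 3 effectors gave -0.76, -0.59 and -0.45 for the 3 lines, carried by BOK. The 3 survival genes gave 0.00, 0.40 and 0.34, carried by BCL2 in TC/AVE and by MCL1 and BCL2 in TC/CP. The 3 BH3-only genes gave 0.12, 0.19 and -0.04. In TC/AEW and TC/AVE these were carried by PMAIP1, whose difference changed sign within the array set, as described below. Single TC-71 samples, set against the mean that includes them, ran from -0.23 to 0.15 for the effectors. They ran from -0.14 to 0.21 for the survival genes and from -0.09 to 0.13 for the BH3-only genes. These means have no test.

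**Figure D3:**
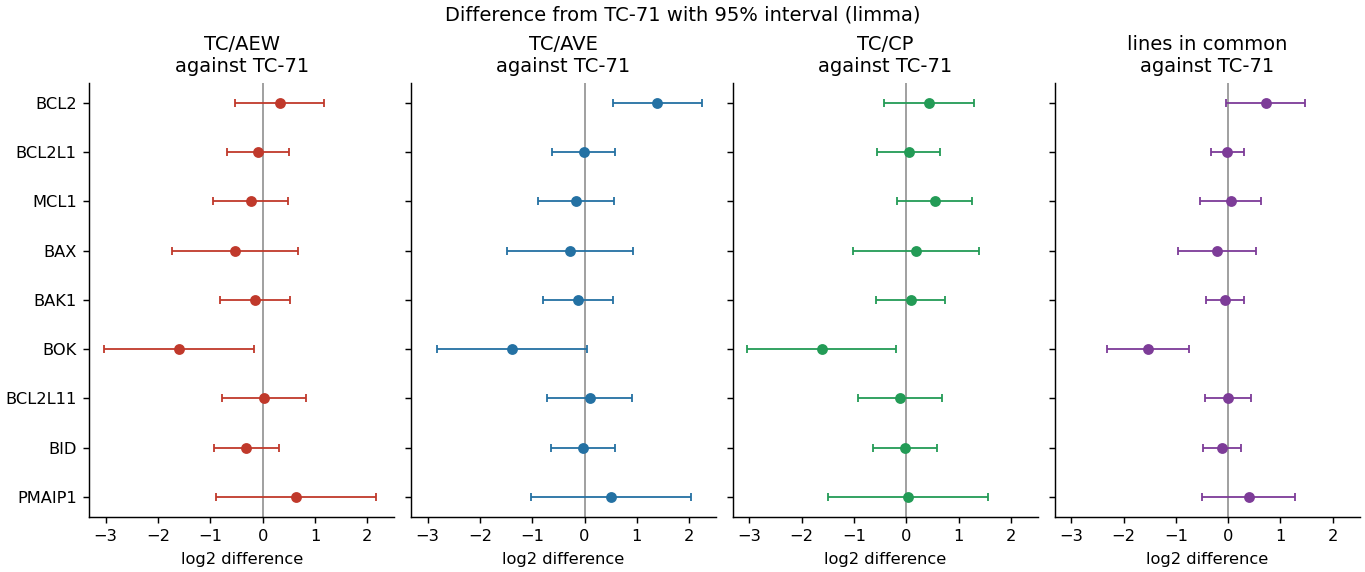
Log2 difference from TC-71 (x axis) of the 9 members (y axis) in each line and in the lines in common; points are limma estimates and bars 95% intervals, with 3 TC-71 samples and 1 sample per line. The intervals of BCL2 in TC/AVE and of BOK in TC/AEW, TC/CP and the lines in common do not reach 0, and none of these passed after adjustment over all genes.

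The years in the array file names of the labels put TC-71 sample 1 in a set alone, join sample 2 to the TC/AEW and TC/AVE arrays, and join sample 3 to those of TC/CP. Within these sets BOK was lower by -1.04 in TC/AEW, -0.82 in TC/AVE and -1.37 in TC/CP, smaller in each line than against all 3 TC-71 samples. With the set as a block the BOK difference in common was -1.12 ± 0.16 (adjusted p = 0.255). BCL2 in TC/AVE was 1.31 higher than TC-71 sample 2, close to the 1.39 above, but BCL2 in TC/CP was only 0.12 higher than TC-71 sample 3. MCL1 in TC/CP was 0.36 higher than TC-71 sample 3, and MCL1 in TC/AVE was 0.14 higher than TC-71 sample 2. TC/CP lies in another set than TC/AEW and TC/AVE, so line and set cannot be told apart in its differences from them. BAX was lower within its set in each line, at -0.66, -0.41 and -0.33, and -0.45 ± 0.14 with the set as a block (adjusted p = 0.428). BCL2L11 was 0.37 and 0.44 higher than TC-71 sample 2 in TC/AEW and TC/AVE, and differed by -0.15 from TC-71 sample 3 in TC/CP. PMAIP1 turned from 0.64 and 0.51 higher to -0.21 and -0.33 in TC/AEW and TC/AVE. Smaller differences also had the opposite sign within sets: BCL2L1 and BAK1 in all 3 lines, MCL1 in TC/AEW and TC/AVE, BAX in TC/CP, and BID in TC/AVE and TC/CP. TC/AEW and TC/AVE, which share a set, differed by -1.07 in BCL2 and by at most 0.28 in size in the other 8 members.

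**Figure D4:**
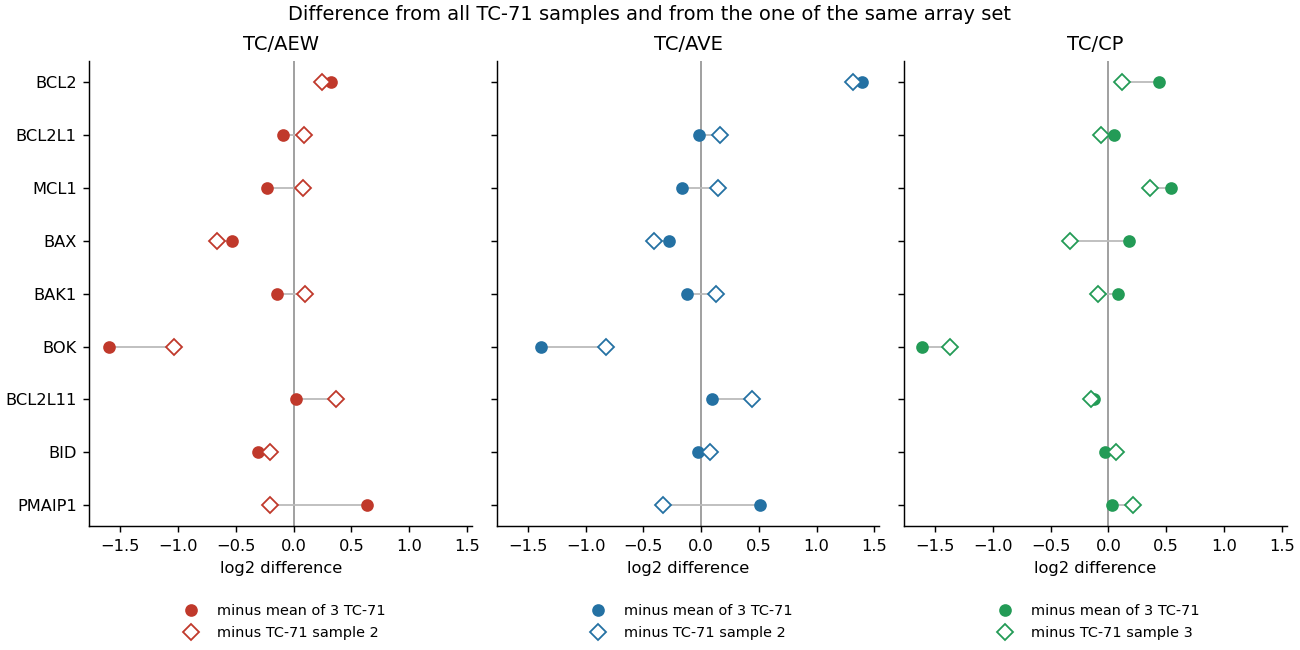
Log2 difference of each line (x axis) for the 9 members (y axis), taken from the mean of the 3 TC-71 samples (filled circles) and from the TC-71 sample of the same array set (open diamonds). BOK stays below 0 in all 3 panels and BCL2 in TC/AVE moves little, while PMAIP1 changes sign in TC/AEW and TC/AVE, as do several differences nearer 0 in BCL2L1, MCL1, BAX, BAK1 and BID.

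Cell identity was checked with marker lists. Of 9 Ewing sarcoma markers 8 were measured and all 8 passed the filter, with CD99 from 12.82 to 13.00, STEAP1 from 11.71 to 12.40 and NKX2-2 from 8.72 to 9.40 over the 6 samples. LIPI and GLI1, also on that list, were below TC-71 in all 3 lines as BOK was, by -1.55 ± 0.28 and -0.64 ± 0.23 (adjusted p = 0.202 and 0.532). Of all genes 4.33% were. Of 7 measured blood and immune markers 2 passed the filter, CD3D at up to 5.13 and HBB at up to 6.02, and PTPRC stayed at 3.90 to 4.02. Of 6 epithelial markers 3 passed, KRT8, KRT18 and KRT5, while EPCAM and CDH1 were near background at up to 3.82 and 4.09. KRT18 too was below TC-71 in all 3 lines, by -1.05 ± 0.14 (adjusted p = 0.157). The mean over the 7 fibroblast markers ran from 6.002 to 6.54 in TC-71 and was 7.11, 6.11 and 6.45 in the 3 lines. Its members went different ways: LUM was 8.36 in TC/AEW and 3.78 in TC/AVE, COL1A1 was highest in TC/CP at 9.04, COL3A1 was lowest in TC/AVE at 5.19, and THY1 was above TC-71 in all lines. The part of these markers in the members' values was not tested. In RNA from whole cultures, fewer cells that express a gene and less RNA per cell cannot be told apart. The 2 arrays of a line correlated at 0.996 to 0.998 across genes and the TC-71 samples at 0.963 to 0.983.

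The rest of the cell death machinery was read from 5 further lists, and 0 genes of any of them passed an adjusted p of 0.05 by limma in any comparison. Shares of all genes lying outside TC-71 in a single line are those given above for the members. Of 16 other BCL2 family genes 13 were tested, and 8 were higher and 5 lower in the lines in common (median 0.03). BMF, a BH3-only protein released from the cytoskeleton, was the one of them outside the TC-71 range in all lines, where 9.53% of all genes were. It averaged 7.45 ± 0.25 (SD, n = 3) in TC-71 against 7.02, 6.86 and 6.62 in the lines. Its difference in common was -0.62 ± 0.18 (unadjusted p = 0.0106, adjusted p = 0.422 by limma). HRK, another BH3-only gene, was 0.90 ± 0.42 higher in TC/AEW (6.94, against 6.04 ± 0.51 in TC-71, 5.64 in TC/AVE and 5.63 in TC/CP, adjusted p = 1.00). With the mean of kept probe sets the HRK difference in TC/AEW was 0.42. BNIP3L gave 0.36 ± 0.31 and BNIP2 0.28 ± 0.26 in common (adjusted p = 0.815 and 0.827). BNIP3L lay above all TC-71 samples in TC/AEW and BNIP2 in TC/CP, where 15.4% and 21.2% of all genes did.

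Of 10 death receptor and adaptor genes 9 were tested, 5 higher and 4 lower in common (median 0.04). Of these 9, 2 had an unadjusted p under 0.05 by limma in common, where 8.39% of all genes did. TNFRSF10A, a receptor for the death ligand TRAIL, averaged 7.75 ± 0.36 (SD) in TC-71, against 8.66, 8.30 and 8.92 in the lines. All 6 line arrays lay above TC-71, as they did for 5.2% of all genes. The difference in common was 0.88 ± 0.23 (1.84-fold, unadjusted p = 0.00700, adjusted p = 0.390). CASP8, which cleaves BID, was 0.48 ± 0.20 higher in common (adjusted p = 0.594), above TC-71 in TC/AVE and TC/CP at 8.19 and 8.11 and overlapping it in TC/AEW. FAS was lowest in TC/AVE, at 6.61 against 7.80 ± 0.72 (-1.18 ± 0.56, adjusted p = 0.758).

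Of 15 genes of the apoptosome, the caspases and their inhibitors 12 were tested, 6 higher and 6 lower in common (median -0.0013). CASP6, an executioner caspase, averaged 8.86 ± 0.21 in TC-71, against 8.20, 7.96 and 8.71 in the lines, below TC-71 in TC/AEW and TC/AVE, with a difference in common of -0.57 ± 0.22 (adjusted p = 0.570). CASP2 and XIAP gave -0.39 and -0.28, or -0.08 and -0.09 with the mean of kept probe sets. AIFM1 was -0.34 ± 0.22 in TC/CP.

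All 8 mitochondrial partner genes were tested, 4 higher and 4 lower in common (median 0.03). VDAC2, the outer membrane channel that binds BAK1, averaged 12.48 ± 0.07 in TC-71, against 12.27, 11.99 and 12.19 in the lines (-0.32 ± 0.13, adjusted p = 0.578). MTCH2, an outer membrane receptor for cleaved BID, was likewise below TC-71 in all lines (-0.23 ± 0.11, adjusted p = 0.655). Thus 2 of the 8 genes lay below TC-71 on every line array, where 4.33% of all genes did. CLU, a secreted chaperone, was dim at 4.74 ± 0.05 in TC-71 and 5.18, 4.66 and 5.11 in the lines. It lay above TC-71 in TC/AEW (0.44 ± 0.20) and TC/CP. No TC-71 sample exceeded 4.78, so CLU passed the filter at 5 only through arrays of the lines. Its place above TC-71 is therefore partly set by the filter. MOAP1 was 0.45 ± 0.24 higher in TC/CP (adjusted p = 0.998).

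Of 17 regulators of the family's RNA or protein 16 were tested, 5 higher and 11 lower in common (median -0.10). Of these 16, 0 had an unadjusted p under 0.05 by limma in common, where 8.39% of all genes did. FOXO3, a FOXO factor of the kind named above for BCL2L11, averaged 9.14 ± 0.33 in TC-71, against 9.10, 8.51 and 8.70 in the lines (-0.37 ± 0.22, adjusted p = 0.732), and FOXO4 gave -0.31 ± 0.21. BTRC, a ubiquitin ligase subunit, gave -0.29 in common and -0.51 ± 0.27 in TC/AEW. With the mean of kept probe sets BTRC gave -0.06 and -0.12. DDIT3, a stress-induced factor, was -0.86 ± 1.28 in TC/CP, with TC-71 itself spread from 8.37 to 11.42.

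**Figure D5:**
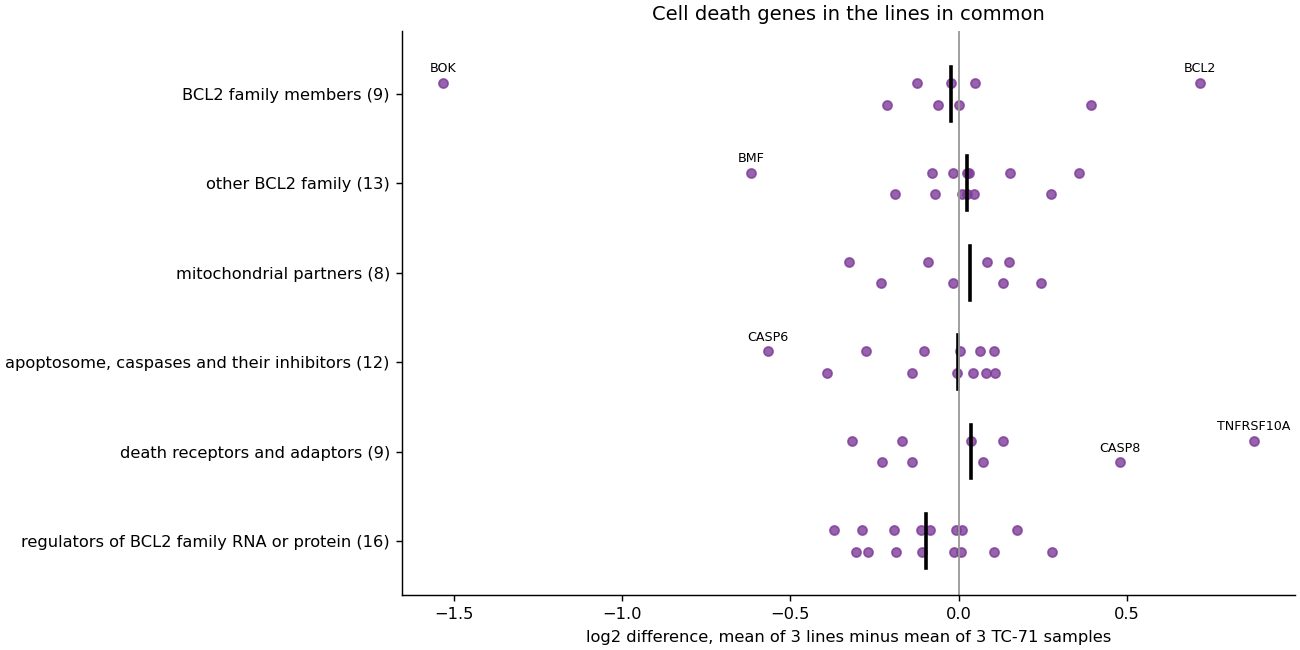
Log2 difference of the mean of the 3 lines from the mean of the 3 TC-71 samples (x axis) for each tested gene of the members and of the 5 further lists (y axis, number tested in brackets); black bars are medians and names mark differences over 0.45 in size. BOK at -1.53 is the lowest point and TNFRSF10A at 0.88 the highest.

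Profiles like those of BOK and BCL2, the members with the largest SD over the 6 samples (0.96 and 0.59), were sought among all genes tested by the root mean square difference between gene-centred log2 levels over the 6 samples. The nearest to BOK were CRIP2 (0.21), SLC18A3 (0.25) and SAMD11 (0.26). CRIP2 averaged 11.18 ± 0.77 in TC-71, highest in sample 1, against 9.59, 10.36 and 9.66 in the lines. The nearest to BCL2 were ARHGEF4 (0.08), NPNT (0.12) and PPP1R9A (0.12). No TC-71 sample exceeded 4.83 for NPNT, so it passed the filter at 5 only through arrays of the lines. Its place among the nearest is therefore partly set by the filter. PPP1R9A averaged 6.45 ± 0.43 in TC-71, against 7.03, 8.01 and 7.09 in the lines, highest in TC/AVE as BCL2 was. With 14172 genes and 6 samples near neighbours arise for any profile, and the likeness is given as a description.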

How the data were processed

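RNA from TC-71 and its 3 resistant lines was hybridised to Affymetrix HG-U133 Plus 2 arrays, 9 in all. Per the submitters' processing notes, the authors summarised the arrays with RMA in the affy package, and the deposited values are log2 levels per probe set. Versions are not given in the sources used here. The number of arrays limits the precision.

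Control probe sets (62) were left out. Each gene was represented by its brightest single-symbol probe set, on average across the 9 arrays (this includes _x_at and _s_at probe sets, which can cross-hybridise), kept where at least 2 arrays reached 5, which left 14172 genes. Symbols came from the platform annotation, and those of the 9 measured members matched RefSeq by gene identifier. The 2 technical arrays of a line were averaged. The labels call the TC-71 samples biological replicates without describing separate cultures. The p-values of single lines and of lines against each other reflect the spread among those 3 only. Those of the lines in common also reflect the spread among the 3 lines.

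Two-sided limma tests (limma 3.58.1, R 4.3.3) were adjusted by Benjamini-Hochberg across all genes. A fit of 4 groups (2 residual and 3.01 prior degrees of freedom) served single lines and lines against each other; a fit of 2 groups (4 and 3.06) served the lines in common. The fits were tested on simulated data. An exact permutation test of 3 samples against 3 cannot go below p = 0.1 and was not used. All members were named. From each other list, the 3 largest differences in common and the largest in each line were named, and for the 2 most variable members the 3 nearest profiles. The members and lists were chosen with earlier results of these data known. Alternatives covered the probe set, filter, scaling, technical arrays, variance trend, array set and leaving out samples.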

Additional observations from a re-analysis of the deposited data

How the results depend on the processing

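No paired analysis was possible because the replicate numbers of the lines mark technical arrays that were averaged into 1 sample per line, so the groups share no numbers. The array set was fitted as a block instead, with its values given in the results. Over 70 gene results and 22 alternatives, 1263 of 1333 recomputed values kept their direction and their side of the threshold, 56 turned sign and 14 passed the threshold anew. All 14 did so with the 9 arrays taken as samples, which counts technical arrays as replicates. There BOK had adjusted p = 0.038 in TC/AEW, 0.031 in TC/AVE, 0.026 in TC/CP and 0.017 in common, BCL2 0.004 in TC/AVE and 0.023 for TC/AVE against TC/CP, and MCL1 0.029 for TC/AVE against TC/CP. That setting called 545 genes in TC/AEW, 1871 in TC/AVE, 1013 in TC/CP, 288 for the inhibitor line against both antibody lines, 1905 for TC/AVE against TC/CP and 238 in common.

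In common, 3 genes were called in the fit described, 5 without _x_at and _s_at probe sets and 5 with median centring. The count was 6 with the mean of kept probe sets, 6 with the filter at 2 arrays of 6, 6 with a variance trend, 0 with no filter and 0 with the array set as a block. It was 0 without each of the 6 samples in turn, and from 2 to 5 without 1 technical array of a line. In TC/AVE the count was 6 with the mean of kept probe sets and 5 with a second quantile normalization. For these counts, and for the signs below, the cause was not tested.

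Signs turned as follows. Without _x_at and _s_at probe sets MCL1 gave 0.057 in TC/AEW and 0.064 in TC/AVE, and BAX, PMAIP1 and BOK had no value. XIAP in common gave 0.055 both there and without _x_at alone. With the mean of kept probe sets MCL1 gave 0.063 in TC/AEW and 0.049 in TC/AVE. In TC/CP the mean gave -0.011 for BCL2, -0.27 for BCL2L1, -0.046 for BAX and 0.18 for BCL2L11, which gave 0.15 in common. A second quantile normalization gave -0.0071 for BCL2L11 in TC/AEW, and -0.0070 for BCL2L1 and -0.0035 for PMAIP1 in TC/CP. Median centring gave BCL2L11 -0.00076 in TC/AEW and 0.00029 in common. With the array set as a block the values in common were 0.045 for BCL2L1, 0.027 for BAK1, 0.17 for BCL2L11, -0.061 for PMAIP1, -0.026 for BNIP3L and -0.015 for BNIP2.

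Leaving out 1 sample at a time moved BOK in common to -1.13 without TC-71 sample 1, and turned the sign of the values that follow, among them DDIT3, FAS and BNIP2, whose differences were not small. BCL2L11 ran from -0.15 to 0.18 in TC/AEW, from -0.073 to 0.26 in TC/AVE, from -0.30 to 0.036 in TC/CP and from -0.17 to 0.16 in common. BCL2L1 ran from -0.11 to 0.041 in TC/AVE, from -0.046 to 0.10 in TC/CP and from -0.11 to 0.035 in common. BID ran from -0.082 to 0.074 in TC/AVE and from -0.083 to 0.073 in TC/CP. BAX ran from -0.14 to 0.43 in TC/CP and from -0.53 to 0.040 in common. BAK1 ran from -0.040 to 0.17 in TC/CP and from -0.19 to 0.025 in common. PMAIP1 ran from -0.30 to 0.45 and DDIT3 from -1.38 to 0.14 in TC/CP. In common MCL1 ran from -0.20 to 0.19, BNIP2 from -0.021 to 0.48 and FAS from -0.66 to 0.12. Probe sets near background, such as BOK 221454_at, give little measure of a difference.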
